A study of Mus musculus with 4 samples.

Results

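The surfactant and alveolar type 2 genes described here are the 4 surfactant protein genes Sftpa1, Sftpb, Sftpc and Sftpd, 5 genes of the lamellar body and of lipid and phosphate handling (Abca3, Lamp3, Napsa, Slc34a2 and Lpcat1), and the transcription factor gene Etv5. They were selected by symbol, 10 genes of the 17780 in the deposited expression table. No limit on their values was applied, but they were chosen with earlier results of these data known. Lung poly(A)+ RNA of male C57BL/6J mice was sequenced from 1 library for each of 4 treatments: vehicle, amiodarone (an anti-arrhythmic drug with known lung toxicity), dabigatran (an oral thrombin inhibitor), and both drugs together. Treatment lasted 28 days by the labels, was given orally on weekdays, and used the same dose of each drug alone and in combination. All 4 groups were of the same strain, the vehicle group received carboxymethylcellulose, and whether a library holds RNA of 1 mouse or of several is not given in the sources used here. The study asked what chronic amiodarone does to lung tissue and whether dabigatran alters it. With 1 library per treatment no test between treatments was possible, and a ratio below compares 2 libraries.

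Pulmonary surfactant is a film of phospholipid and protein that lowers surface tension in the alveoli, and it is made, stored in lamellar bodies and largely taken back by alveolar type 2 cells. SP-B and SP-C are small hydrophobic proteins that help the lipid film to spread, whereas SP-A and SP-D are water-soluble collectins that bind microbes and take part in surfactant turnover. Around them work a lipid transporter, membrane and protease components of the lamellar body, an enzyme that makes its main phospholipid, a phosphate carrier, and transcription factors that keep the cell type.

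To show the sequence context of these genes, the 150 bases before the annotated start are printed for Sftpa1 and Sftpb, surfactant protein genes that were higher with amiodarone, and for Slc34a2 and Etv5, a carrier gene that was highest with both drugs and the gene that was lowest with amiodarone. They are RefSeq sequence of GRCm38.p6, read 5′ to 3′ on the strand of the gene, at chr14:41131638-41131787 (+), chr6:72304460-72304609 (+), chr5:53049203-53049352 (+) and chr16:22439571-22439720 (-). Capitals mark matches, on either strand, to the TATA box TATAAN, the NKX2-1 core CTCAAG, the forkhead (FOX) motif TGTTTNC, the C/EBP motif TTNNGNAA or the ETS motif GGAAGT.
Sftpa1: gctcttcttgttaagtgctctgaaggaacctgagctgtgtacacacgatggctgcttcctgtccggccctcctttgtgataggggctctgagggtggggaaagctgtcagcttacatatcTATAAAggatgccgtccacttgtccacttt
Sftpb: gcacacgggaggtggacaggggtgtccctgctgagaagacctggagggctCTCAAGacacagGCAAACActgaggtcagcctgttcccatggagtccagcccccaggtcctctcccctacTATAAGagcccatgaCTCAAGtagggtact
Slc34a2: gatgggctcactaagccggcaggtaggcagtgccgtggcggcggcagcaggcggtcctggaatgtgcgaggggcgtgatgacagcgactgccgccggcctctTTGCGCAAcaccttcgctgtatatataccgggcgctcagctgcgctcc
Etv5: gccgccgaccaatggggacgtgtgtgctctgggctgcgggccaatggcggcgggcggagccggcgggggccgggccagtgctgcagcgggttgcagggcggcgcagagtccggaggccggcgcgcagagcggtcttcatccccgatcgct
In the window of Sftpa1 the capitals are a TATA box. In that of Sftpb they are, in order, an NKX2-1 core, a forkhead motif on the other strand, a TATA box and a further NKX2-1 core. In that of Slc34a2 they are a C/EBP motif, and the Etv5 window holds no match to these letters. Over the 250 bases before the start, Sftpb held 2 NKX2-1 cores and Sftpa1 held 1, whereas Abca3, Lamp3, Slc34a2, Lpcat1 and both starts of Etv5 held 0. Of 32536 windows of the same length from all genes, 13.3% held at least 1. The TATA letters were in 22.7% of all windows, the forkhead letters in 17.8%, the C/EBP letters in 36.8% and the ETS letters in 19.8%, and no motifs overlapped in the windows shown. Promoter entries were found for 7 of the 10 genes, with none for Sftpc, Sftpd and Napsa. CpG content split these 7 genes, from 0 CpG in the 250 bases of Lamp3, 3 in Sftpa1 and 7 in Sftpb to 16 in Lpcat1, 21 in Abca3, 27 at the first of 2 Etv5 starts and 28 in Slc34a2, against a median of 6 over all windows. A match is a description of letters and not evidence of binding.

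All 10 genes were well detected in lung. Sftpc was the second most abundant gene of the table in each of the 4 libraries, Sftpb ranked between 5 and 9, and the lowest member, Etv5, ranked between 1808 and 2574. Levels are in FPKM, which counts fragments per kilobase of a transcript relative to library depth, so they can be compared between genes. Together the 10 genes made up between 2.68% (dabigatran) and 3.01% (both drugs) of a library, with vehicle at 2.75% and amiodarone at 2.96%, of which Sftpc alone accounted for 1.46% to 1.53%. Total reads per library lay between 17498486 and 18903401, and even Etv5 had between 2267 and 2887 reads. All 10 genes passed the filter of at least 1 FPKM in every comparison. In whole lung, a different number of alveolar type 2 cells and a different amount of RNA per cell cannot be told apart.

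**Figure D1:**
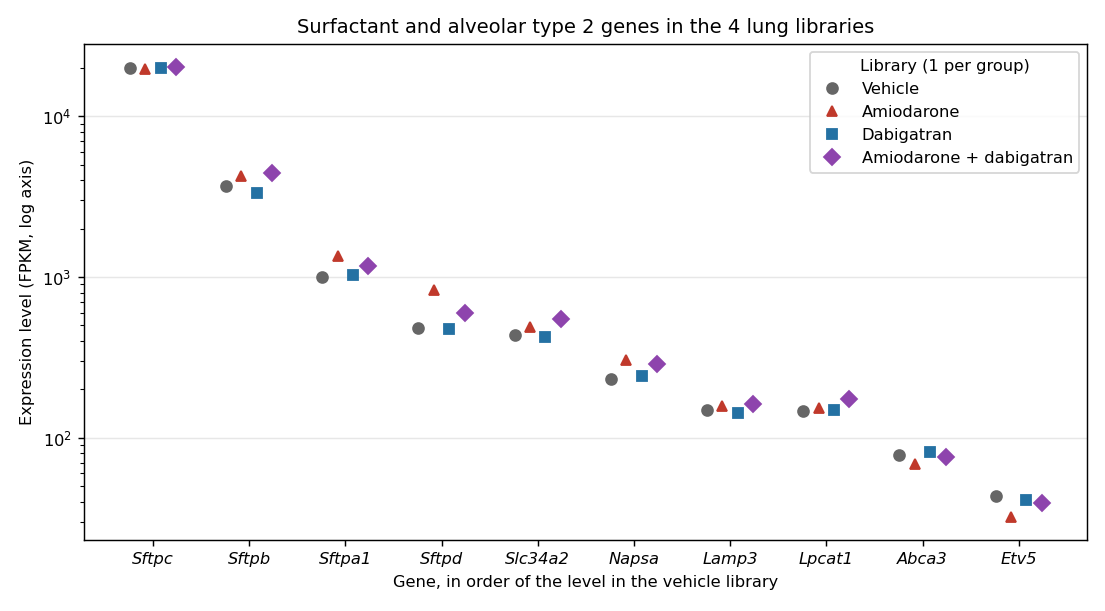
Levels of the 10 genes in FPKM (log axis) in the vehicle, amiodarone, dabigatran and amiodarone + dabigatran libraries, 1 point per library, with genes ordered by their vehicle level. Sftpc sits between 19587 and 20385 FPKM, whereas Sftpd stands apart with amiodarone at 828 FPKM.

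The order of the levels was the same in all 4 libraries but for 1 pair. Sftpc led Sftpb by 4.60- to 5.97-fold, followed by Sftpa1, Sftpd, Slc34a2 and Napsa, then Lamp3 and Lpcat1, and last Abca3 and Etv5. Lamp3 and Lpcat1 could not be ordered in the vehicle and amiodarone libraries, where the 95% intervals of their ratios (1.01 and 1.02) held 1, and Lpcat1 was the higher with dabigatran and with both drugs, where the ratios of Lamp3 to Lpcat1 were 0.963 and 0.926. Slc34a2 was close behind Sftpd with vehicle, dabigatran and both drugs (Sftpd 1.08- to 1.13-fold higher) but not with amiodarone alone (1.70-fold).

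The first comparison asks how the genes differed between the amiodarone and vehicle libraries. Within the family, the collectins Sftpd and Sftpa1 were higher with amiodarone, Sftpb was slightly higher and Sftpc was nearly level, whereas the lamellar body lipid transporter gene Abca3 and Etv5 were lower. Of the 10 genes, 3 were at least 25% higher (Sftpd, Sftpa1 and Napsa), against 11.3% of the 13402 genes tested (1 FPKM or more in 1 of the 2 libraries), and 1 was at least 20% lower (Etv5), against 18.5% of those genes. These limits of size (a ratio of at least 25% above or 20% below 1) stand in place of a test. In either direction 29.7% of the genes tested passed a limit, 22.7% of those with at least 10 FPKM and 30.1% of those with at least 100 FPKM, as did 4 of these 10. All 10 ratios had a 95% interval from the reads that excluded 1, against 49.7% of all genes tested. Intervals narrow as reads rise, and the 10 genes are abundant. Here and in the later comparisons, the contrast with all genes by interval therefore does not set the 10 genes apart. These intervals (exact Clopper-Pearson) cover counting error only, and the difference between mice is not in them. The median log2 ratio of the 10 genes was 0.13, beside -0.052 over all genes tested. Reference genes give a measure of the spread: 8 of them had ratios from 0.925 to 1.23.

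Sftpd, on chromosome 14 from 41172212 to 41185198, encodes SP-D and showed the largest difference of the 10. Its level was 481 FPKM with vehicle, 828 FPKM with amiodarone, 477 FPKM with dabigatran and 594 FPKM with both drugs. The 2 libraries without amiodarone were alike and the 2 with it were higher, the combination far less so. The ratio of amiodarone to vehicle was 1.72 (95% interval 1.68 to 1.76), above that of every reference gene. With both drugs the level was 0.717 times that with amiodarone alone (0.702 to 0.733) and 24.5% above that with dabigatran alone (ratio interval 1.21 to 1.28), which falls just short of the limit and passed it, at 1.26, when scaled by the median ratio over genes.

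Sftpa1, which encodes SP-A, lies on the same chromosome from 41131788 to 41136373, 35.8 kb from Sftpd. It measured 996 FPKM with vehicle, 1356 FPKM with amiodarone, 1022 FPKM with dabigatran and 1167 FPKM with both drugs. The order of the libraries by level was thus close to that of Sftpd, with amiodarone alone highest, the combination between, and the other two within 2.63% of each other. The ratio to vehicle with amiodarone was 1.36 (1.35 to 1.38), and the combination was at 0.861 times amiodarone alone (0.851 to 0.870) and 1.14 times dabigatran alone (1.13 to 1.16). Between them on the chromosome lies Mbl1, a further collectin gene, which was hardly detected at 16 to 30 reads per library, with intervals that held 1 in all 4 comparisons. Of the related collectin genes elsewhere, Colec11 stayed below 1 FPKM, and Colec12 measured 39.6, 34.2, 47.2 and 41.2 FPKM in the vehicle, amiodarone, dabigatran and combination libraries. Unlike Sftpd and Sftpa1, Colec12 was lower with amiodarone than with vehicle (ratio 0.865, 0.815 to 0.918).

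Sftpb encodes SP-B, the hydrophobic protein required for lamellar body formation, and lies on chromosome 6 from 72304610 to 72314373. Its levels were 3667 FPKM with vehicle, 4235 FPKM with amiodarone, 3329 FPKM with dabigatran and 4429 FPKM with both drugs. In contrast to the collectins, it was highest with the combination, and it was lowest with dabigatran alone. The ratio was 1.15 for amiodarone over vehicle (1.15 to 1.16) and 1.33 for the combination over dabigatran (1.32 to 1.34). Sftpc, the gene of SP-C on chromosome 14 from 70520941 to 70524081, varied least of the 10. It measured 20077 FPKM with vehicle, 19587 FPKM with amiodarone, 19876 FPKM with dabigatran and 20385 FPKM with both drugs, so that the highest library was 1.04 times the lowest. The ratio of amiodarone to vehicle was 0.976 (0.970 to 0.981), and this direction turned with the scaling of the libraries, to 1.01 when scaled by the median ratio over genes and 1.04 when scaled to equal totals.

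**Figure D2:**
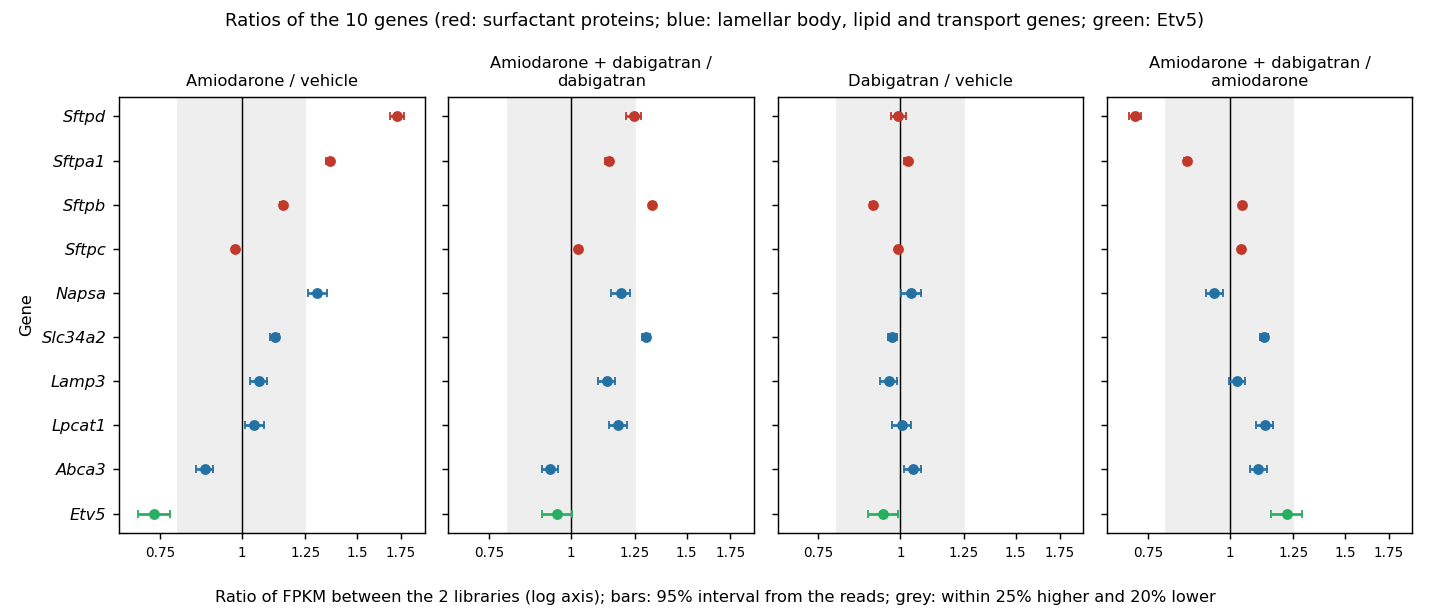
Ratio of FPKM between 2 libraries (log axis) for each of the 10 genes in the 4 comparisons, with 95% intervals from the reads as bars; points in the grey band lie inside the limits. With amiodarone over vehicle Sftpd (1.72), Sftpa1 (1.36) and Napsa (1.30) lie right of the band and Etv5 (0.735) left of it, whereas all dabigatran over vehicle ratios lie inside it.

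Because Sftpc was nearly level, it serves as an internal measure that does not depend on the scaling of a library. Sftpd stood at 23.9 FPKM per 1000 FPKM of Sftpc with vehicle and 24.0 with dabigatran, but at 42.3 with amiodarone and 29.1 with both drugs. Sftpa1 per 1000 Sftpc was likewise highest with amiodarone at 69.2, followed by 57.2 with both drugs, 51.4 with dabigatran and 49.6 with vehicle. For Sftpb the 2 libraries with amiodarone were alike instead, at 216 with amiodarone and 217 with both drugs, above 183 with vehicle and 167 with dabigatran. The 2 collectins also differed unequally, since Sftpa1 exceeded Sftpd by 2.07-fold with vehicle, 2.14-fold with dabigatran and 1.97-fold with both drugs, but by only 1.64-fold with amiodarone. These ratios show unequal differences among the genes and do not say which gene was constant.

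**Figure D3:**
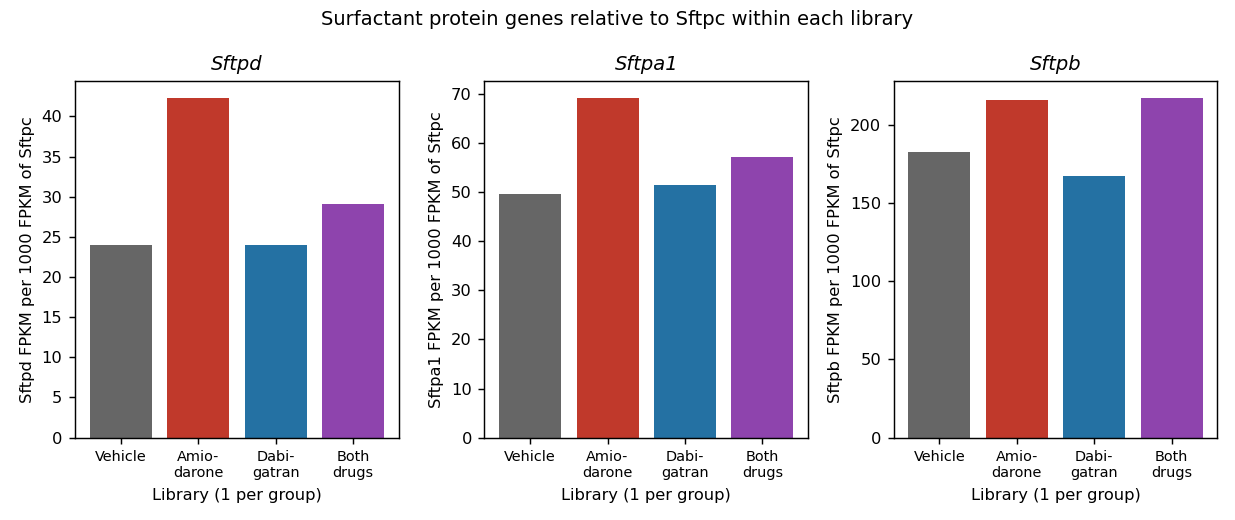
Level of Sftpd, Sftpa1 and Sftpb in FPKM per 1000 FPKM of Sftpc in the same library, 1 bar per library, axes from 0. The amiodarone library is highest for Sftpd (42.3) and Sftpa1 (69.2), and the 2 libraries with amiodarone are level for Sftpb (216 and 217).

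Among the lamellar body, lipid and transport genes, Napsa was the only one past the limit with amiodarone. It encodes the aspartic protease napsin A, which helps to process the SP-B precursor, on chromosome 7 from 44572445 to 44586846. Its levels were 232 FPKM with vehicle, 303 FPKM with amiodarone, 241 FPKM with dabigatran and 287 FPKM with both drugs, giving a ratio of 1.30 to vehicle with amiodarone (1.26 to 1.35). Both libraries with amiodarone were above both without it. Slc34a2, the gene of the phosphate carrier NaPi-IIb on chromosome 5 from 53049353 to 53071664, measured 433 FPKM with vehicle, 486 FPKM with amiodarone, 421 FPKM with dabigatran and 548 FPKM with both drugs. Like Sftpb it was highest with the combination, 1.30 times dabigatran alone (1.28 to 1.32), and its ratio with amiodarone alone to vehicle was 1.12 (1.10 to 1.14).

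Lamp3, which encodes a glycoprotein of the lamellar body membrane (chromosome 16, 19653381 to 19706365), and Lpcat1, which encodes an acyltransferase that makes dipalmitoylphosphatidylcholine (chromosome 13, 73467231 to 73516420), differed little. Lamp3 measured 148, 157, 142 and 161 FPKM with vehicle, amiodarone, dabigatran and both drugs, with a ratio of amiodarone to vehicle of 1.06 (1.03 to 1.09). Lpcat1 measured 147, 154, 148 and 174 FPKM in the same order, with a ratio of 1.05 (1.01 to 1.08). Both were highest with the combination, Lpcat1 at 1.18 times dabigatran alone (1.14 to 1.22) and Lamp3 at 1.13 times (1.10 to 1.17).

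Abca3 went the other way from the genes around it. It encodes the transporter that loads phospholipid into lamellar bodies (chromosome 17, 24351921 to 24410204) and measured 78.0 FPKM with vehicle, 68.5 FPKM with amiodarone, 81.5 FPKM with dabigatran and 75.7 FPKM with both drugs. Both libraries with amiodarone were below both without it, with a ratio of 0.877 for amiodarone over vehicle (0.851 to 0.904) and 0.929 for the combination over dabigatran (0.902 to 0.956). The span of Abca3 overlaps Abca17 by 138 bases and 2 noncoding genes, and that of Slc34a2 overlaps a noncoding gene by 3 bases, while the other 8 genes overlap no annotated gene. Relative to its fellow lamellar body genes, Abca3 was lower with amiodarone, with Napsa 2.98 times Abca3 with vehicle and 2.96 times with dabigatran but 4.42 times with amiodarone and 3.79 times with both drugs. Against Sftpb, Abca3 stood at 21.3 FPKM per 1000 FPKM with vehicle and 24.5 with dabigatran, and at 16.2 with amiodarone and 17.1 with both drugs.

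Etv5, the gene of an ETS family transcription factor needed to maintain alveolar type 2 cells (chromosome 16, 22381313 to 22439570), was lower with amiodarone. Its levels were 43.6 FPKM with vehicle, 32.0 FPKM with amiodarone, 41.0 FPKM with dabigatran and 39.1 FPKM with both drugs. The amiodarone library alone stood apart, at 0.735 times vehicle (0.695 to 0.776). Etv5 was therefore further below Abca3 there, by 2.14-fold, than in the other three libraries, where Abca3 was 1.79 to 1.99 times Etv5. The combination was 1.22 times amiodarone alone (1.15 to 1.29), and its ratio to dabigatran alone, 0.952, had an interval that held 1 (0.903 to 1.004).

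Set against each other as groups, the surfactant proteins and the lamellar body, lipid and transport genes gave an answer that depended on the summary. Summed levels of the 4 surfactant protein genes were 25221 FPKM with vehicle, 26006 FPKM with amiodarone, 24704 FPKM with dabigatran and 26574 FPKM with both drugs. The 5 other genes summed to 1039, 1168, 1034 and 1246 FPKM in the same order, so that the surfactant proteins were 24.3, 22.3, 23.9 and 21.3 times as abundant. On the log2 scale the surfactant sum was different from the other sum by -0.12 with amiodarone over vehicle (-0.14 to -0.11) and by -0.16 with the combination over dabigatran (-0.18 to -0.15). This sum is dominated by Sftpc. Without Sftpc the difference turned to 0.15 and 0.089, and with the medians of the log2 ratios to 0.24 and 0.017, so no direction is given for the groups. With dabigatran over vehicle the difference of the sums was -0.022 (-0.042 to -0.0033), and with the combination over amiodarone it was -0.062 (-0.079 to -0.045). Both kept their sign, at -0.084 and -0.15 without Sftpc and at -0.019 and -0.22 by medians.

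Dabigatran alone was compared with vehicle to see whether it differed without amiodarone. None of the 10 genes passed a limit, 0 higher against 5.36% and 0 lower against 5.68% of the 13373 genes tested. The ratios ran from 0.908 for Sftpb (0.899 to 0.916) to 1.04 for Abca3 (1.01 to 1.08), and the median log2 ratio was -0.013, beside 0.00065 over all genes. Counting intervals excluded 1 for 8 of the 10 genes, against 28.6% of all genes, the exceptions being Sftpd and Lpcat1. These ratios lay within the range of the 8 reference genes, 0.907 to 1.08. With Sftpc, Sftpd, Lamp3 and Slc34a2 the direction turned under another scaling of the libraries.

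The combination was compared with amiodarone alone to see which genes differed when dabigatran was added. Of the 10 genes 1 was at least 20% lower, Sftpd at 0.717, against 5.94% of the 13261 genes tested, and 0 were at least 25% higher, against 9.10%. Sftpa1 (0.861) and Napsa (0.948, 0.919 to 0.978) were also lower, and the other 7 genes had ratios above 1, from 1.03 for Lamp3 to 1.22 for Etv5. The 3 genes past the limit as higher with amiodarone were thus the 3 with a ratio below 1 here, and Etv5, past the limit as lower, had the highest ratio here. Both comparisons use the same amiodarone library, so a high or low value in that library alone gives opposite ratios in the pair. Intervals excluded 1 for 9 of the 10 genes, against 36.2% of all genes, and the median log2 ratio was 0.061, beside 0.035 over all genes. The interval of Lamp3 held 1, and its direction turned under another scaling of the libraries. Slc34a2 at 1.13 (1.11 to 1.14), Lpcat1 at 1.13 (1.10 to 1.17), Abca3 at 1.11 (1.07 to 1.14) and Sftpb at 1.05 (1.04 to 1.05) were higher with the combination by less than the limit.

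The comparison of the combination with dabigatran alone shares no library with that of amiodarone and vehicle, and so sets a second pair of libraries with and without amiodarone beside the first. Of the 10 genes 2 were at least 25% higher, Sftpb at 1.33 and Slc34a2 at 1.30, against 10.01% of the 13379 genes tested, and 0 were at least 20% lower, against 12.3%. Of the 8 reference genes, which ran from 0.938 up, Gapdh was also at 1.33, so a difference of this size was not particular to Sftpb. Slc34a2 fell just short of the limit when totals were made equal without the 10 most abundant genes. Intervals excluded 1 for 9 of the 10 genes, against 43.0% of all genes, and the median log2 ratio was 0.21, beside -0.014 over all genes. Sftpd (24.5% higher), Napsa at 1.19 (1.15 to 1.23) and Sftpa1 at 1.14, the genes past the limit in the first pair, were higher in this pair too but by less than the limit. In both pairs 7 genes were higher with amiodarone and 2, Abca3 and Etv5, were lower. Over the 13237 genes tested in both pairs, 26.5% were higher in both and 37.9% were lower in both. Sftpc was lower in the first pair and higher in the second (1.03, 1.02 to 1.03). Which gene differed most was therefore not the same in the 2 pairs, with Sftpd first without dabigatran and Sftpb first with it.

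Other genes of the alveolar type 2 cell and of surfactant turnover were read from lists. For each list the shares over all genes tested were 11.3% higher and 18.5% lower in the first pair. In the second pair they were 10.01% and 12.3%. Of 13 further alveolar type 2 genes, 5 passed the upper limit with amiodarone over vehicle and 0 the lower. With the combination over dabigatran 4 were higher and 1, S100g at 0.751 (0.656 to 0.860), was lower. Scd1, a fatty acid desaturase gene, had ratios of 2.80 (2.76 to 2.84) and 2.86 (2.82 to 2.89) in the 2 pairs, larger than those of any of the 10 genes. Ctsh, which encodes the protease cathepsin H that also trims the SP-B precursor, stood at 1.73 (1.67 to 1.79) and 1.60 (1.54 to 1.65), beside Napsa at 1.30 and 1.19. Chil1, a chitinase-like gene, measured 542 FPKM with vehicle, 1028 FPKM with amiodarone, 554 FPKM with dabigatran and 687 FPKM with both drugs, an order of libraries like that of Sftpd with amiodarone first and the combination second. The other genes of the list past the limit in the first pair were Fabp5 (2.07) and Lyz1 (1.33), which shares near-identical sequence with Lyz2. Cd74 (1.14) and Cxcl15 (1.05), abundant genes of the list, were within the limit.

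Genes that regulate surfactant expression mostly lay below 1 with amiodarone. Of 13 genes 12 were tested, of which 5 were at least 20% lower with amiodarone than with vehicle, as was the member Etv5, and 0 were higher. The shares over all genes tested were 18.5% lower and 11.3% higher. With the combination over dabigatran 4 were lower and 1, Srebf1 at 1.31, was higher, against 12.3% and 10.01% of all genes tested. Nkx2-1, the gene of the transcription factor whose core is marked in the Sftpb sequence above, measured 132 FPKM with vehicle, 105.0 FPKM with amiodarone, 123 FPKM with dabigatran and 108 FPKM with both drugs. Its ratio was 0.797 (0.765 to 0.830) in the first pair and 0.876 (0.841 to 0.912) in the second. The ratio of the first pair is barely past the limit of 0.8. Counts in this and the other lists were not repeated under other scalings of the libraries. Foxa2 (0.700), Gata6 (0.748), Srebf2 (0.752) and Thrb (0.581) were the others past the limit in the first pair. The median log2 ratio of the 12 genes was -0.29 in the first pair and -0.26 in the second, beside -0.052 and -0.014 over all genes. That of the 4 surfactant protein genes was 0.33 and 0.25. The pan-epithelial list described below had medians of -0.24 and -0.12, and the airway secretory list -0.51 and -0.45. Which cells the differences of the regulators came from was not tested.

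Of 19 genes of surfactant lipid synthesis, 5 were at least 25% higher and 3 lower with amiodarone than with vehicle, and 4 were higher and 3 lower with the combination than with dabigatran. The median log2 ratio was near that of all genes, at -0.042 and 0.0075. Lpcat1, which remodels the product of this pathway, was within the limit in both pairs. Higher in the first pair were the lipin genes Lpin2 (1.60) and Lpin1 (1.40), Scd2 (1.37), Agpat2 (1.35) and Acaca (1.27), and the lower ones included Elovl1 (0.793) and Pcyt1b (0.741). Of 10 genes of surfactant recycling and clearance, 5 were higher and 1, Bach2 (0.708), was lower in the first pair, and 7 were higher and 0 lower in the second. The 5 were Csf2 (2.40, 1.44 to 4.13), Csf2rb (1.82), Abcg1 (1.62), Spi1 (1.35) and Csf2ra (1.34). All are known from macrophages or their control, whereas Adgrf5 (1.22) and Prdx6 (1.11), known from alveolar epithelium among other cells, were within the limit.

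**Figure D4:**
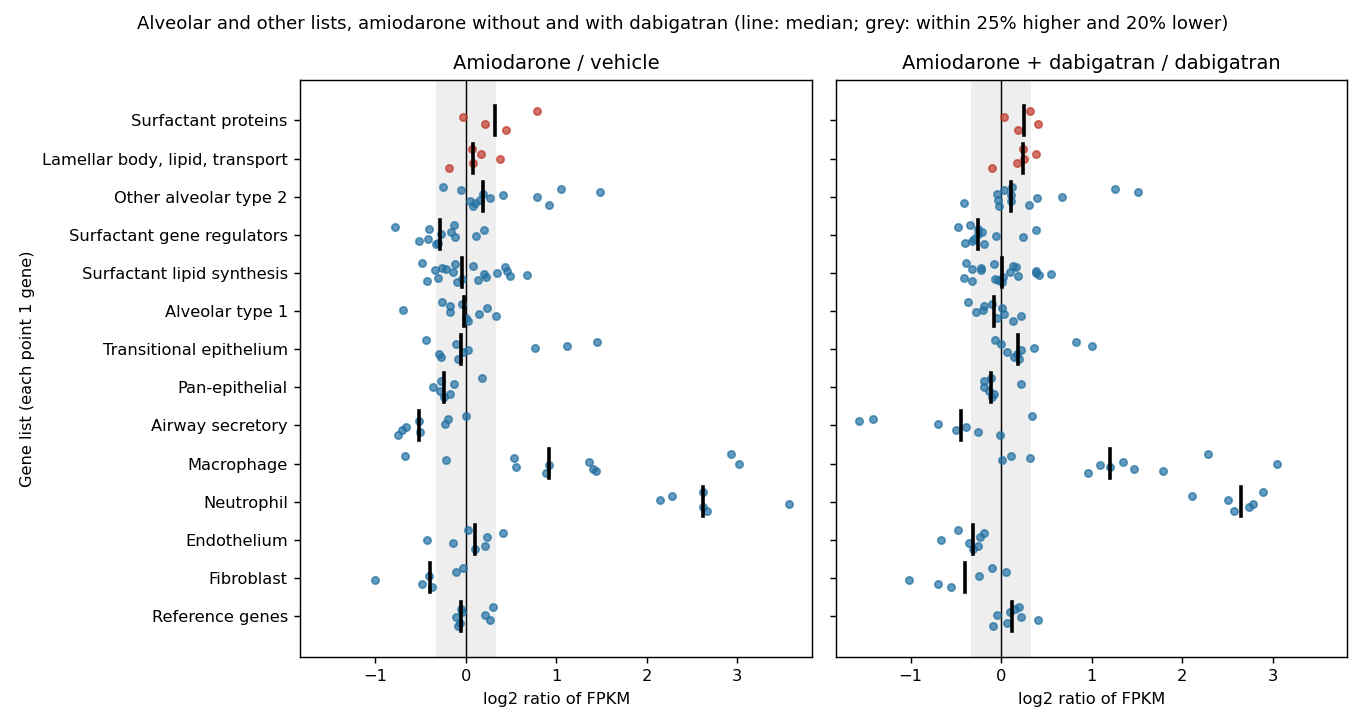
log2 ratio of FPKM for each tested gene of the lists named on the axis (1 point per gene; black line, median; grey, inside the limits) with amiodarone over vehicle and with amiodarone + dabigatran over dabigatran. Etv5, the recycling and clearance list and the collectin list are not drawn. The medians of the surfactant proteins (0.33 and 0.25) lie above 0 and those of the regulators (-0.29 and -0.26) below it, while macrophage and neutrophil genes reach far higher.

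Markers of other cells of the lung were counted in the same way. Over all genes tested, 11.3% were higher and 18.5% lower in the first pair. In the second pair 10.01% were higher and 12.3% lower. Of 10 alveolar type 1 genes 1 was higher and 1 lower with amiodarone than with vehicle, and the summed level was 4737 and 4711 FPKM. Of 7 pan-epithelial genes 1 was lower and 0 higher, with a summed level of 1004 FPKM with vehicle and 839 FPKM with amiodarone, in contrast to the higher levels of Sftpd, Sftpa1 and Napsa. Of 10 genes of transitional or injured alveolar epithelium, 3 were higher and 1 lower in the first pair, led by Cdkn1a (2.73) and Lgals3 (2.17), and 3 were higher and 0 lower in the second. The keratin genes Krt8 (0.946), Krt18 (0.829) and Krt19 (0.813) lay below 1 in the first pair. In the second they lay above 1 (1.15, 1.10 and 1.13). The median log2 ratio of the list was -0.056 in the first pair, beside -0.052 over all genes, and 0.19 in the second, beside -0.014. Which cells of whole lung the higher Cdkn1a and Lgals3 came from was not tested. Airway secretory genes were lower for 5 of 8 in each pair, and 1 was higher in the second, with ratios from 0.596 to 1.004 in the first. Their summed level, nearly all Scgb1a1, was 131466 FPKM with vehicle, 78731 FPKM with amiodarone, 105891 FPKM with dabigatran and 102794 FPKM with both drugs.

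Macrophage genes were higher for 9 of 11 and lower for 1 in the first pair, and higher for 9 and lower for 0 in the second. Their summed level was 3640 FPKM with vehicle, 5906 FPKM with amiodarone, 3956 FPKM with dabigatran and 5854 FPKM with both drugs, mostly Lyz2, and Chil3 had ratios of 8.10 and 8.29. All 6 neutrophil genes were higher in both pairs, with a summed level of 91.1 FPKM with vehicle, 595 FPKM with amiodarone, 67.9 FPKM with dabigatran and 430 FPKM with both drugs. No macrophage or neutrophil marker was at 0 in any library, the lowest being Mmp8 and Marco. Of 7 endothelial genes 1 was higher and 1 lower in the first pair and 3 were lower in the second, and of 6 fibroblast genes 4 and 3 were lower. The summed neutrophil level was thus higher with amiodarone than with both drugs, as was the level of Sftpd. The summed macrophage level, mostly Lyz2, was alike in the 2 libraries with amiodarone. By gene, 4 of the 11 macrophage genes were higher and 1 lower with the combination than with amiodarone alone. The shares over all genes tested were 9.10% higher and 5.94% lower. The part of these cell type differences in the levels of the 10 genes was not tested.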

How the data were processed

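Lung poly(A)+ RNA from 1 library per treatment was sequenced by DNBseq. The authors mapped clean reads to GRCm38.p6 with HISAT and to reference genes with Bowtie2, and estimated expression with RSEM. The deposited table holds, for each library, estimated counts of reads and a normalized value that behaves as FPKM; the unit was inferred, because reads per unit of value differ between libraries by their totals. The means of 2 libraries in a further 8 columns were left out, and 0 columns belonged to other samples. The study dates the tissue slightly earlier than the labels, which give 28 days.

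Libraries were grouped by their labels. Ratios of deposited FPKM were computed for 4 comparisons with Python 3.11.15, pandas 2.3.3, numpy 2.4.6 and scipy 1.17.1, and drawn with matplotlib 3.10.9. A ratio of at least 1.25 or at most 0.8 was called, among genes that reached 1 FPKM in one or both libraries. Exact Clopper-Pearson intervals at 95% were taken from the estimated counts, rounded to whole reads, and rescaled to FPKM. A count of 0 allows up to 3 reads, 1.71e-05% of the vehicle library. Sequenced reads are not independent molecules, so intervals and floors cover counting error only. Strandedness of the counting is not given in the sources used here. The 1.25-fold limit and the intervals were tried first on counts simulated from the vehicle library, with counting error as the only spread. The other steps were not simulated.

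Coordinates and promoter windows came from RefSeq tables for GRCm38.p6, in which 17669 gene identifiers were found. The 10 genes and the 14 further lists (other alveolar type 2 genes, regulators, lipid synthesis, recycling and clearance, collectins, alveolar type 1, transitional, pan-epithelial, airway secretory, macrophage, neutrophil, endothelial, fibroblast and reference genes) were chosen with earlier results of these data known. Named were all 10 genes, Mbl1, and per list the most abundant genes and those past the limit with amiodarone over vehicle, except some that are not reported here. Genes named beyond that rule (Srebf1, Adgrf5 and Mmp8 among them) were chosen after their values were seen. Alternatives were other scalings of the libraries, reads scaled to the library total, pseudocounts of 0.1 and 1, limits of 1.5-fold and 2-fold, calls by interval, no filter or a filter of 10 FPKM and, chosen after seeing the data, a filter of 100 FPKM.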

Additional observations from a re-analysis of the deposited data

Results flagged for a closer look

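Several of the genes had opposite directions, each beyond counting error, when dabigatran was given alone (over vehicle) and when it was added to amiodarone (over amiodarone alone). With 1 library per treatment the difference was not tested, and the 8 reference genes ran from 0.907 to 1.08 with dabigatran alone and from 0.902 to 1.17 with the combination over amiodarone, ranges that hold the ratios of this paragraph except 0.861 for Sftpa1 and 1.22 for Etv5. For the hydrophobic surfactant proteins the pair of ratios was 0.908 and 1.05 for Sftpb and 0.990 and 1.04 for Sftpc. Sftpa1, the SP-A gene, went the other way with 1.03 and 0.861, as did the protease gene Napsa with 1.04 and 0.948. Slc34a2, the phosphate carrier gene, gave 0.972 and 1.13. Etv5 gave 0.942 and 1.22. For Sftpc and Slc34a2 the direction with dabigatran alone turned under another scaling of the libraries.

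Sftpc also differed in direction between the 2 pairs of libraries with and without amiodarone, at 0.976 for amiodarone over vehicle and 1.03 for the combination over dabigatran. Both directions turned under another scaling, and this difference was not tested either.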

How the results depend on the processing

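No paired analysis was possible because each group has 1 library. The number of the 10 genes past the limit with amiodarone over vehicle, 4 at the limits used, was 1 at 1.5-fold, 0 at 2-fold and 10 by interval. The shares over all genes tested were 29.7%, 12.7%, 4.79% and 49.7% in that order. With dabigatran over vehicle it went from 0 to 8 by interval. With the combination over amiodarone it went from 1 to 0 at 1.5-fold, 0 at 2-fold and 9 by interval. The shares over all genes tested were 15.0%, 4.53%, 1.32% and 36.2%. With the combination over dabigatran it went from 2 to 3 with scaling by the median ratio over genes, where Sftpd passed the limit, 1 with totals equal without the 10 most abundant genes, 0 at 1.5-fold, 0 at 2-fold and 9 by interval. Reads scaled to the library total and filters on low values changed no count of the 10 genes. Pseudocounts were run for the median log2 ratios only.

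The median log2 ratio of the 10 genes with amiodarone over vehicle, 0.13, became 0.17 with scaling by the median ratio and 0.22 with equal totals. With dabigatran over vehicle, -0.013 became 0.064 with equal totals. With the combination over amiodarone, 0.061 became 0.023 with the median ratio, 0.019 with equal totals and 0.0499 with equal totals without the 10 most abundant genes. With the combination over dabigatran, 0.21 became 0.15 with that last scaling. The difference between surfactant proteins and the lamellar body, lipid and transport genes reversed with medians (0.24 with amiodarone over vehicle and 0.017 with the combination over dabigatran) and without Sftpc (0.15 and 0.089). From reads it was -0.0078 and -0.10. With dabigatran over vehicle it was -0.084 without Sftpc, and with the combination over amiodarone -0.22 with medians, -0.15 without Sftpc and -0.12 from reads. The weight of Sftpc in the sums accounts for the reversal without it, and other causes were not tested. Single ratios moved by up to 6.84%.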
